A study of Mus musculus with 8 samples.

Results

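The genes described here are 48 genes of mitosis and the spindle, taken as a fixed list of symbols covering mitotic kinases, cyclins, checkpoint proteins, kinetochore proteins, kinesins, condensin and cytokinesis proteins. Each gene was read from the array probe set that the platform annotation assigns to its symbol, and where a gene had several, from the probe set with the highest mean over the 8 arrays. Of the 48, 47 were found and 1, Ccnb1, had no probe set assigned to it alone, so it is named only. All 47 passed the filter on dim genes, out of 11386 genes tested, and all 47 lay above the median of all values (4.75, log2) in each of the 8 arrays.

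Total RNA of leukemic spleen cells from mice was hybridised to 8 Affymetrix mouse expression arrays, 4 per genotype. The full-length group expressed CBFb-SMMHC, the fusion of core binding factor beta and smooth muscle myosin heavy chain found in human acute myeloid leukemia with inversion 16, and its 2 mice were taken 2 months after they had received ENU, a mutagen. The truncated group expressed CBFb-SMMHCd179-221, a shortened form of the fusion, and its 2 mice were sampled 3 weeks after birth, with no ENU treatment named for them. The sample labels call both groups chimeras, while the series text calls the full-length mice knock-in. Genotype, ENU and age go together in these groups and cannot be told apart. Each genotype has 1 array of animal 1 and 3 arrays of animal 2, so the animal was the unit of replication and n = 2 per genotype. Whether the repeat arrays of animal 2 used new RNA is not given, so the spread among them may be technical.

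Mitosis begins when Cdk1, bound to cyclins A and B and switched on by Cdc25 phosphatases, phosphorylates its targets. Plk1 and the Aurora kinases then build the spindle, and the checkpoint proteins hold the anaphase-promoting complex (APC/C) in check until every kinetochore is attached, after which Cdc20 and Ube2c drive the destruction of securin and cyclin B. Because most of these messages are made in late S, G2 and M phase, their level in bulk tissue follows how many cells are cycling. In these bulk samples fewer cycling cells and less RNA per cycling cell cannot be told apart.

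Many promoters of this class carry the letters CCAAT, bound by NF-Y, and a cell cycle homology region (CHR), TTTGAA or TTCGAA, bound by the DREAM and MuvB complexes. The RefSeq promoter table (GRCm38.p6) held a window of 300 bases, 250 before the start and 50 after it, for 40 of the 48 genes, and both motifs were searched on both strands in the first window listed for each gene. CCAAT stood in 31 of 40 windows (77.5%), against 38.7% of the windows of all genes tested and 37.92% of all 27025 genes with a window. A CHR stood in 31 of 40 windows (77.5%), against 13.88% of genes tested and 19.44% of all genes. Both stood in 28 of 40 (70.0%), against 5.85% and 7.7%. In the 250 bases before the start alone, CCAAT stood in 31 of 40 (77.5%) and a CHR in 14 (35%), against 36.34% and 12.24% of genes tested, so many of the CHR matches lay in the 50 bases after the start. Top2a had 6 CCAAT and 4 CHR matches before its start, whereas Birc5, Mad2l1, Ncaph, Nuf2, Nusap1 and Pttg1 had none of these letters in the window. The 250 bases before the start are shown for 4 genes that the results below turn on. Ube2c had the largest gap between replicate numbers in truncated mice and in full-length mice, Cdk1 was high in the replicate 1 arrays of both, and Spc25 and Birc5 were the only 2 members whose arrays did not overlap between genotypes. Capitals mark CCAAT, its reverse complement ATTGG, and the CHR letters or their reverse complement. Ube2c lies at chr2:164769679-164769928 (plus strand, 6 CCAAT, of which 2 overlap as CCAATTGG, and 1 CHR), and Cdk1 at chr10:69352913-69353162 (minus strand, 3 CCAAT and 2 CHR). Spc25 lies at chr2:69206214-69206463 (minus strand, 2 CCAAT and 0 CHR) and Birc5 at chr11:117848987-117849236 (plus strand, 0 of both).
Ube2c: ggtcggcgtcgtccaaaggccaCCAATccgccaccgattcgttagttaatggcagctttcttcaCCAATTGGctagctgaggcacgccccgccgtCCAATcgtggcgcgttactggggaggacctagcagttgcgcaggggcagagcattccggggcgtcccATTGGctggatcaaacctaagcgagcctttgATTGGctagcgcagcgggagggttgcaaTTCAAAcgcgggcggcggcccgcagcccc
Cdk1: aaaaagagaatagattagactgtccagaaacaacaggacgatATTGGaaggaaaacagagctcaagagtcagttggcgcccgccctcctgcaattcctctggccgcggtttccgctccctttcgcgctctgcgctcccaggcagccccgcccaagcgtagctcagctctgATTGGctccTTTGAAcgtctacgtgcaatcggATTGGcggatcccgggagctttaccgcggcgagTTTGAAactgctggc
Spc25: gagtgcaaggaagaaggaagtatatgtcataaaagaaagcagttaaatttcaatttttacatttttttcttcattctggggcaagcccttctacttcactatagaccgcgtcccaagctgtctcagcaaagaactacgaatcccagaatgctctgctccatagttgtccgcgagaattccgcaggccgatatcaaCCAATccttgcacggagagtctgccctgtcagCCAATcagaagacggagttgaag
Birc5: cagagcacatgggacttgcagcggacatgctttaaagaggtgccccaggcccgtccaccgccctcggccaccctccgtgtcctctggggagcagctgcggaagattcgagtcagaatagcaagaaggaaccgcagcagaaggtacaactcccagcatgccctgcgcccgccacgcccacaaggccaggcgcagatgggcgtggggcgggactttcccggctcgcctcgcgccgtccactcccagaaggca
A match of letters is a description and does not show that a factor bound there.

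The arrays did not group as their labels say, which bears on every result below. The replicate 1 array of full-length animal 2 resembled the array of animal 1 (Pearson r = 0.989 over 45101 probe sets) more than the replicate 2 and 3 arrays of its own animal (r = 0.954 and 0.953), which resembled each other at r = 0.997. The truncated arrays had the same arrangement, with r = 0.987 between animal 1 and replicate 1 of animal 2, and r = 0.976 between replicate 1 and replicate 2 of animal 2. The 2 full-length arrays of replicate 1 (animal 1, and the first array of animal 2) also stood apart in markers of other cell types. Their median over 17 erythroid markers (of 20 listed) was 11.01 and 10.79, against 8.92 and 8.99 in the other full-length arrays and 8.49 to 9.61 in the truncated arrays. Their median over 6 primary granule markers, which mark promyelocytes, was 4.88 and 4.81. It was 9.90 and 9.93 in the other full-length arrays and 10.32 to 11.55 in the truncated arrays. Over 11 secondary granule markers of neutrophils, the full-length arrays read 6.58 to 8.94 and the truncated arrays 11.03 to 11.56. T and NK cell markers, which a healthy spleen would show, had medians of 4.50 to 5.19 over the 8 arrays. B cell markers had medians of 4.38 to 5.10 in 6 arrays, and of 5.83 and 6.0 in replicates 2 and 3 of truncated animal 2. Monocyte and macrophage markers (15) had medians of 6.15 to 6.81 in the full-length arrays and 8.18 to 8.27 in the truncated arrays. Of 6 B cell markers tested, 3 were higher in truncated mice at an unadjusted p under 0.05 in limma, against 8.79% of all genes. So were 11 of 11 secondary granule, 11 of 14 monocyte and macrophage and 5 of 6 primary granule markers. Of 17 erythroid markers, 3 were lower, against 5.3% of all genes. These counts lean in part on the 2 full-length arrays of replicate 1. Without them the median difference (truncated minus full-length, log2) of erythroid markers went from -0.84 to 0.57. That of primary granule markers went from 4.18 to 0.87. Secondary granule, monocyte and macrophage, and B cell markers then had medians of 1.54, 1.28 and 0.84. The part of these markers in the results below was not tested.

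No member passed the test between genotypes. In limma on the animal means, with a Benjamini-Hochberg adjusted p under 0.05, 0 of 47 members and 0 of 11386 genes (0%) were called. At an unadjusted p under 0.05, limma gave 0 of 47 members higher and 0 lower in truncated mice, while 8.79% of all genes were higher (1001 genes) and 5.3% lower (604 genes). Differences are given throughout as truncated minus full-length, in log2 units, so that 1 unit is a 2-fold change. They ran from -0.58 (Ube2c) to 0.41 (Ndc80), with 23 members above 0 and 24 below. The median was -0.02, against -0.01 over all genes tested. The median size regardless of sign was 0.13, against 0.26 over all genes. None of the 47 differed by more than 1 unit, which 10.2% of all genes did. The 95% interval lay within 1 unit either side of 0 for 32 of 47 members (68.1%) and for 53.2% of all genes, so for the other members these data do not exclude a 2-fold difference. Adjusted p-values of the members in limma ran from 0.466 (Ect2) to 0.989 (Ncaph).

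**Figure D1:**
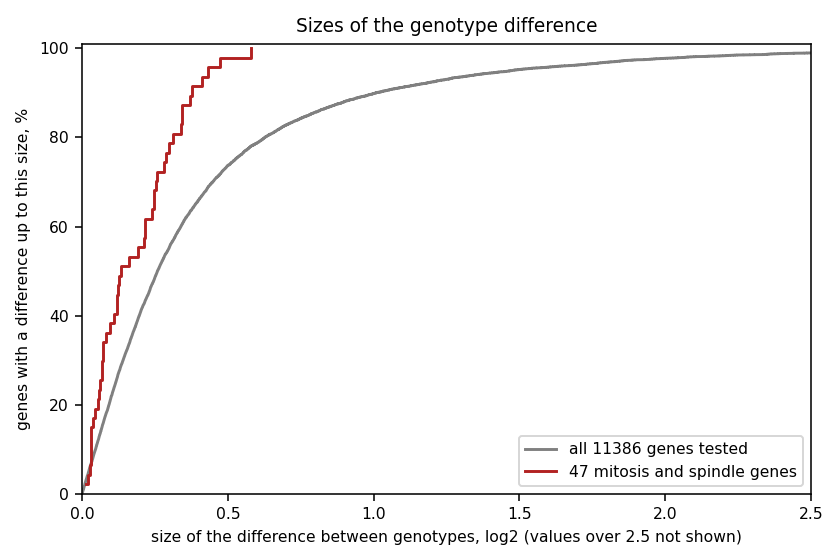
Cumulative share of genes (vertical axis, percent) against the size of the difference between genotypes (horizontal axis, log2), for the 47 mitosis and spindle genes and for all 11386 genes tested. The member line reaches 100% at 0.58, while 10.2% of all genes differ by more than 1.

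Without the 2 full-length arrays of replicate 1 the picture over the members moved. The full-length group then rests on 2 arrays of animal 2, and this 1 animal is assumed to vary like the others. The median difference became 0.20, against 0.00 over all genes, and 37 of 47 members (78.7%) lay above 0, against 50.5% of all genes. The fit still called 0 members. Because replicate 1 arrays were also high in truncated mice (median gap 0.18), this leaves unlike sets of arrays to compare. With replicates 2 and 3 of both genotypes the median was 0.07, against -0.02 over all genes, and 30 of 47 members (63.8%) lay above 0, against 47.1% of all genes.

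**Figure D2:**
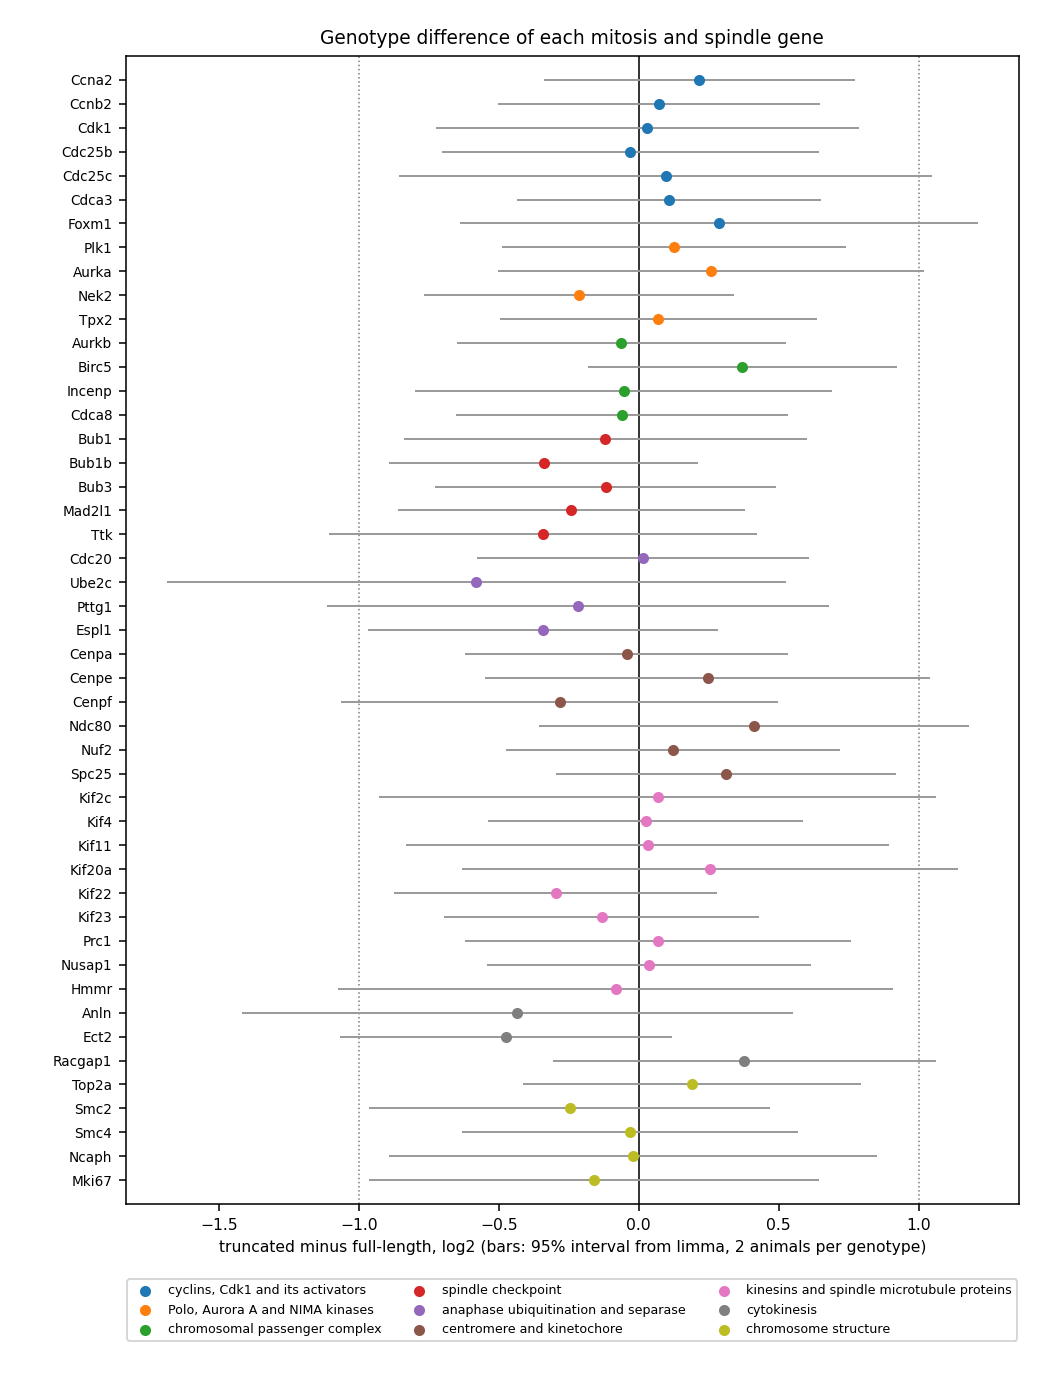
Difference between genotypes (truncated minus full-length, log2) of each of the 47 genes, coloured by role, with the 95% interval from limma on 2 animals per genotype. Dotted lines mark 1 unit either side of 0, and every interval spans 0.

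Arrays with the same label of animal and replicate number were positively correlated in their deviations from their genotype's mean. Yet full-length animal 2 replicate 1 correlated best with truncated animal 1, and its replicate 3 with truncated replicate 2. The check thus bears out pairing by number only in part. The number was also used as a block over the 8 arrays. That fit treats the arrays of an animal as separate samples, so its p-values are too small. It called 940 genes (8.26% of those tested) and 0 members. At an unadjusted p under 0.05 it had 4 members higher (Birc5, Ndc80, Spc25 and Cenpe) and 3 lower (Mad2l1, Ube2c and Ect2), which is 4 and 3 of 47 against 13.5% and 13.8% of all genes. With only the first array of each animal, limma called 2 members, both lower in truncated mice: Bub1b at -0.64 (adjusted p = 0.0323) and Anln at -0.66 (adjusted p = 0.0313). In that fit 11.9% of all genes were called lower and 14.5% higher. Adjusted p over all settings tried ran from 0.0323 to 0.999 for Bub1b and from 0.0313 to 0.999 for Anln.

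In 2 members every truncated array lay above every full-length array, and in 0 members below, against 10.3% and 8.77% of all genes. These were Birc5 and Spc25. Below, values are given in the order animal 1, then replicates 1, 2 and 3 of animal 2.

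Cyclins, Cdk1 and its activators lay slightly above 0, in 6 of 7 genes, with a median of 0.10 and a range of -0.03 to 0.29. Within replicates 2 and 3 of both genotypes the median was -0.18, with 2 of 7 above 0. Cdk1, the kinase that starts mitosis, read 9.36, 9.28, 8.84 and 8.84 in the full-length arrays and 9.49, 9.43, 8.64 and 8.68 in the truncated arrays. Within each genotype both replicate 1 arrays were high and the replicate 2 and 3 arrays low, and the genotypes overlapped (difference 0.03 ± 0.30, SE). Foxm1, a transcription factor that activates G2 and M genes, read 6.61, 7.32, 7.71 and 7.69 in the full-length arrays and 7.37, 7.38, 7.46 and 7.32 in the truncated arrays. The difference of 0.29 ± 0.36 (SE) became -0.32 without the 2 full-length arrays of replicate 1, and both full-length arrays of replicate 1 lay at or below the lowest of the other 6 arrays. Ccna2, cyclin A2, read 9.50, 9.70, 9.65 and 9.70 against 9.77, 10.12, 9.69 and 9.70. The truncated arrays of replicate 1 lay above all full-length arrays and the other 2 lay among them (difference 0.22 ± 0.22, SE). Ccnb2, cyclin B2, differed by 0.07, Cdca3, which promotes entry into mitosis, by 0.11, Cdc25b by -0.03 and Cdc25c by 0.10.

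Plk1, Aurka, its activator Tpx2 and Nek2, grouped as Polo, Aurora A and NIMA kinases, were above 0 in 3 of 4 genes, with a median of 0.10. Aurka, the spindle pole kinase, read 8.44, 8.49, 7.98 and 8.0 in the full-length arrays and 8.87, 8.62, 8.06 and 8.04 in the truncated arrays. Each genotype had its 2 replicate 1 arrays above its other 2 arrays. Plk1, which acts at centrosomes, kinetochores and the midbody, read 8.49, 8.56, 8.29 and 8.28 against 8.75, 8.79, 8.16 and 8.19, again high in the replicate 1 arrays of both genotypes. Nek2, a kinase that separates centrosomes, read 8.20, 7.98, 8.07 and 8.14 against 7.85, 7.76, 8.13 and 8.05 (difference -0.21 ± 0.22, SE), with overlapping arrays. Tpx2 differed by 0.07, and its other probe sets above the median of all values by -0.75, 0.40 and 0.30.

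The chromosomal passenger complex holds Aurora B at centromeres and the midbody. Birc5 (survivin), its targeting subunit, read 9.19, 9.44, 9.30 and 9.28 in the full-length arrays and 9.59, 9.94, 9.55 and 9.57 in the truncated arrays. The lowest truncated array lay above the highest full-length array, and the difference was 0.37 ± 0.22 (SE, limma, adjusted p = 0.551). With the replicate block it was 0.36 (limma, adjusted p = 0.0943). That p is too small, because the fit takes the arrays of an animal as separate samples. The difference was 0.44 within replicate 1 arrays and 0.27 within the other arrays. Aurkb, the catalytic subunit, read 8.40, 8.28, 8.24 and 8.20 against 8.12, 8.32, 8.42 and 8.44. Full-length animal 1 read higher than truncated animal 1, and the full-length arrays of replicates 2 and 3 read lower than the truncated ones. Incenp, its scaffold, differed by -0.05 and Cdca8 (borealin) by -0.06.

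All 5 spindle checkpoint genes, which delay anaphase until kinetochores are attached, lay below 0, with a median of -0.24, and none passed the test. Bub1b (BubR1) read 9.67, 9.86, 9.29 and 9.37 in the full-length arrays and 9.23, 9.01, 9.36 and 9.42 in the truncated arrays. In the replicate 1 arrays the difference was -0.64, and it was 0.07 in the replicate 2 and 3 arrays (overall -0.34 ± 0.22, SE). Mad2l1 (Mad2) read 10.05, 9.92, 9.77 and 9.75 against 9.85, 9.70, 9.44 and 9.44. Its truncated arrays were low in both sets of replicate numbers, at -0.21 and -0.32, and the overall difference was -0.24 ± 0.24 (SE). Ttk (Mps1) read 7.74, 7.13, 6.92 and 7.10 against 7.10, 7.30, 6.86 and 6.82, so that full-length animal 1 alone stood high. Bub1 and Bub3 differed by -0.12 each. Without the 2 full-length arrays of replicate 1, 3 of the 5 genes lay above 0 and the median was 0.04, and within replicates 2 and 3 of both genotypes 2 of 5 did and it was -0.13.

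Among the genes of anaphase onset, 3 of 4 lay below 0 and the median was -0.28. Without the 2 full-length arrays of replicate 1 all 4 lay above 0, with a median of 0.24, and within replicates 2 and 3 the median was 0.03. Ube2c, the ubiquitin-conjugating enzyme of the APC/C, read 10.57, 10.24, 9.15 and 9.23 in the full-length arrays and 9.82, 9.80, 8.76 and 8.82 in the truncated arrays. Replicate 1 arrays were high in both genotypes, by 1.21 and 1.02, which is larger than the genotype difference of -0.58 ± 0.44 (SE). Genotypes overlapped over all 8 arrays, although within each set of replicate numbers the truncated arrays lay lower, by -0.59 and -0.40. On animal means the adjusted p of Ube2c in limma was 0.661. With the replicate block the difference was -0.50 (limma, adjusted p = 0.0604). That p is too small, because the fit takes the arrays of an animal as separate samples. Without the 2 full-length arrays of replicate 1 the difference was 0.28. Cdc20, the activator that the checkpoint restrains, read 10.91, 10.76, 10.57 and 10.61 against 10.89, 10.93, 10.61 and 10.55, with a difference of 0.01 ± 0.23 (SE). Espl1 (separase), which cuts cohesin, read 8.74, 8.72, 8.05 and 8.20 against 8.21, 8.09, 8.20 and 8.20. Here only the 2 full-length arrays of replicate 1 stood high. Pttg1 (securin), which restrains separase, differed by -0.22, but by 0.50 without these 2 arrays. Other probe sets of Pttg1 differed by 0.17 and -0.29 with all arrays.

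**Figure D3:**
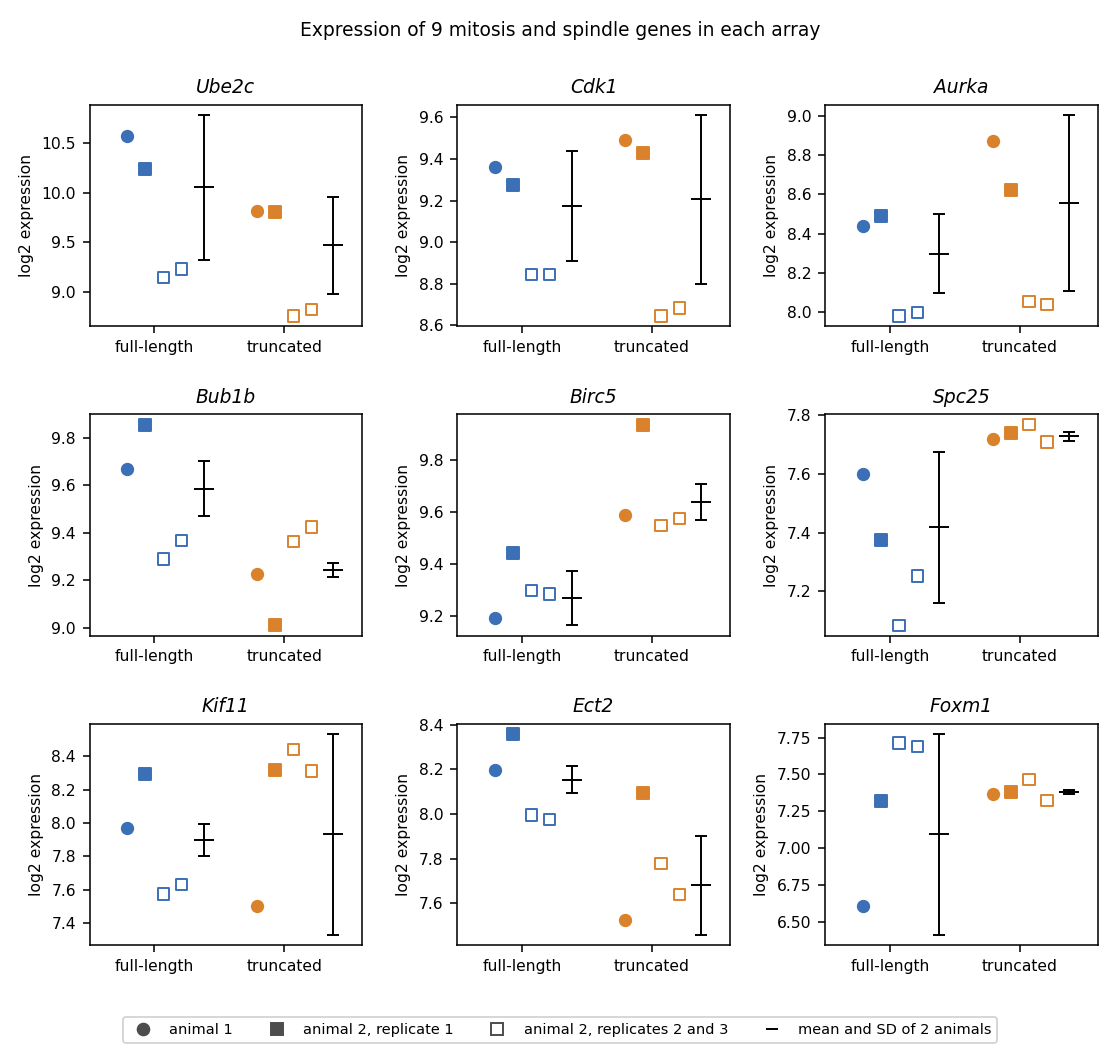
Log2 expression of 9 genes in each array. Filled symbols are replicate 1 arrays (circle, animal 1, and square, animal 2), open squares are replicates 2 and 3 of animal 2, and the black bar is the mean and SD of the 2 animals of a genotype; Ube2c, Cdk1 and Aurka have filled symbols above open ones in both genotypes.

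Kinetochore genes lay above 0 in 4 of 6, with a median of 0.18. Spc25, a subunit of the Ndc80 complex that grips microtubules, read 7.60, 7.37, 7.08 and 7.25 in the full-length arrays and 7.72, 7.74, 7.77 and 7.71 in the truncated arrays. The truncated arrays were tightly grouped and all above the full-length arrays (difference 0.31 ± 0.24, SE, limma, adjusted p = 0.67). Ndc80, which gives the complex its name, read 7.51, 6.98, 6.98 and 7.07 against 7.92, 7.19, 7.5 and 7.59. Full-length animal 1 lay among the truncated arrays, so the genotypes overlapped (difference 0.41 ± 0.30, SE, adjusted p = 0.651 in limma). Nuf2, the partner of Ndc80, differed by 0.12. Cenpa, the histone H3 variant that marks centromeres, read 9.50, 9.68, 9.80 and 9.74 against 9.64, 9.65, 9.48 and 9.40, with a difference of -0.04. The motor Cenpe differed by 0.25 and Cenpf by -0.28.

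Kinesins and spindle microtubule proteins had a median of 0.03 over 9 genes, 6 of them above 0. Kif11 (Eg5), which pushes spindle poles apart, read 7.97, 8.29, 7.57 and 7.63 in the full-length arrays and 7.51, 8.32, 8.44 and 8.31 in the truncated arrays. Its difference was -0.22 in the replicate 1 arrays and 0.78 in the others, beside an overall value of 0.03 ± 0.34 (SE). Kif20a, a central spindle kinesin, read 8.29, 7.83, 7.71 and 7.77 against 8.65, 8.18, 7.77 and 7.80, with animal 1 highest in both genotypes. Kif22, a kinesin on chromosome arms, read 11.17, 11.22, 11 and 10.92 against 10.69, 11.03, 10.93 and 10.86 (difference -0.30 ± 0.23, SE). Its arrays overlapped. Kif2c, Kif4, Prc1 and Nusap1 lay within 0.07 of 0, and Kif23 and Hmmr differed by -0.13 and -0.08. Other probe sets of Hmmr differed by 0.08, -0.06, -0.22 and -0.86.

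Cytokinesis genes had a median of -0.43 over 3 genes, which was -0.04 without the 2 full-length arrays of replicate 1 and 0.07 within replicates 2 and 3. Ect2, which activates RhoA at the division plane, read 8.20, 8.36, 8.0 and 7.98 in the full-length arrays and 7.52, 8.09, 7.78 and 7.64 in the truncated arrays. All but the first array of truncated animal 2 lay below the full-length arrays (difference -0.47 ± 0.23, SE, limma, adjusted p = 0.466), and the difference was -0.31 without the 2 full-length arrays of replicate 1. Anln (anillin), which scaffolds the contractile ring, read 9.0, 8.56, 7.57 and 7.77 against 8.16, 8.07, 7.93 and 7.82. The 2 full-length arrays of replicate 1 were the highest, and the difference of -0.43 ± 0.39 (SE) was 0.38 without them. Racgap1, which with Kif23 forms centralspindlin, differed by 0.38. A second probe set of Racgap1, with a mean of 8.54 against 8.79, differed by -0.07.

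Chromosome structure genes lay below 0 in 4 of 5, with a median of -0.03. Without the 2 full-length arrays of replicate 1 all 5 lay above 0, with a median of 0.37, and within replicates 2 and 3 of both genotypes all 5 did, with a median of 0.32. Top2a, the topoisomerase that untangles sister chromatids, read 9.99, 9.95, 9.46 and 9.60 in the full-length arrays and 10.11, 10.05, 9.87 and 9.87 in the truncated arrays. Within each set of replicate numbers the truncated arrays were higher, by 0.11 and 0.34, and the difference was 0.19 ± 0.24 (SE). Mki67 (Ki-67), which coats mitotic chromosomes and is the usual marker of cycling cells, read 11.61, 11.19, 10.65 and 10.78 against 11.18, 10.92, 11.01 and 11.02. The full-length arrays spanned the truncated ones, and the difference was -0.35 in replicate 1 arrays and 0.30 in the others. Smc2, a condensin subunit, read 9.98, 9.79, 9.15 and 9.21 against 9.37, 9.51, 9.51 and 9.49, with the same arrangement. The condensin subunits Smc4 and Ncaph differed by -0.03 and -0.02.

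Members were also compared by replicate number. In full-length mice the gap between replicate 1 arrays and the other 2 arrays was larger than the genotype difference for 35 of 47 members (74.5%, against 57.3% of all genes), and in truncated mice for 29 (61.7%, against 47.2%). Replicate 1 arrays lay above both other arrays in 30 of 47 members in full-length mice (63.8%, against 34.4% of all genes) and in 24 in truncated mice (51.1%, against 36.7%). In both genotypes they did so for 17 (36.2%, against 16.6%), and they lay below both for 1, Racgap1 (2.13%, against 13.9%). The median gap was 0.24 in full-length and 0.18 in truncated mice, against -0.02 and 0.04 over all genes. Array by array, the median deviation of the members from their own means was 0.20, 0.04, -0.16 and -0.11 in the full-length arrays and 0.11, 0.06, -0.06 and -0.06 in the truncated arrays. The erythroid markers given above were high in the same full-length arrays of replicate 1, and at 0.47 in truncated mice their median gap had the same sign. The part of erythroid cells in the members' gap was not tested.

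**Figure D4:**
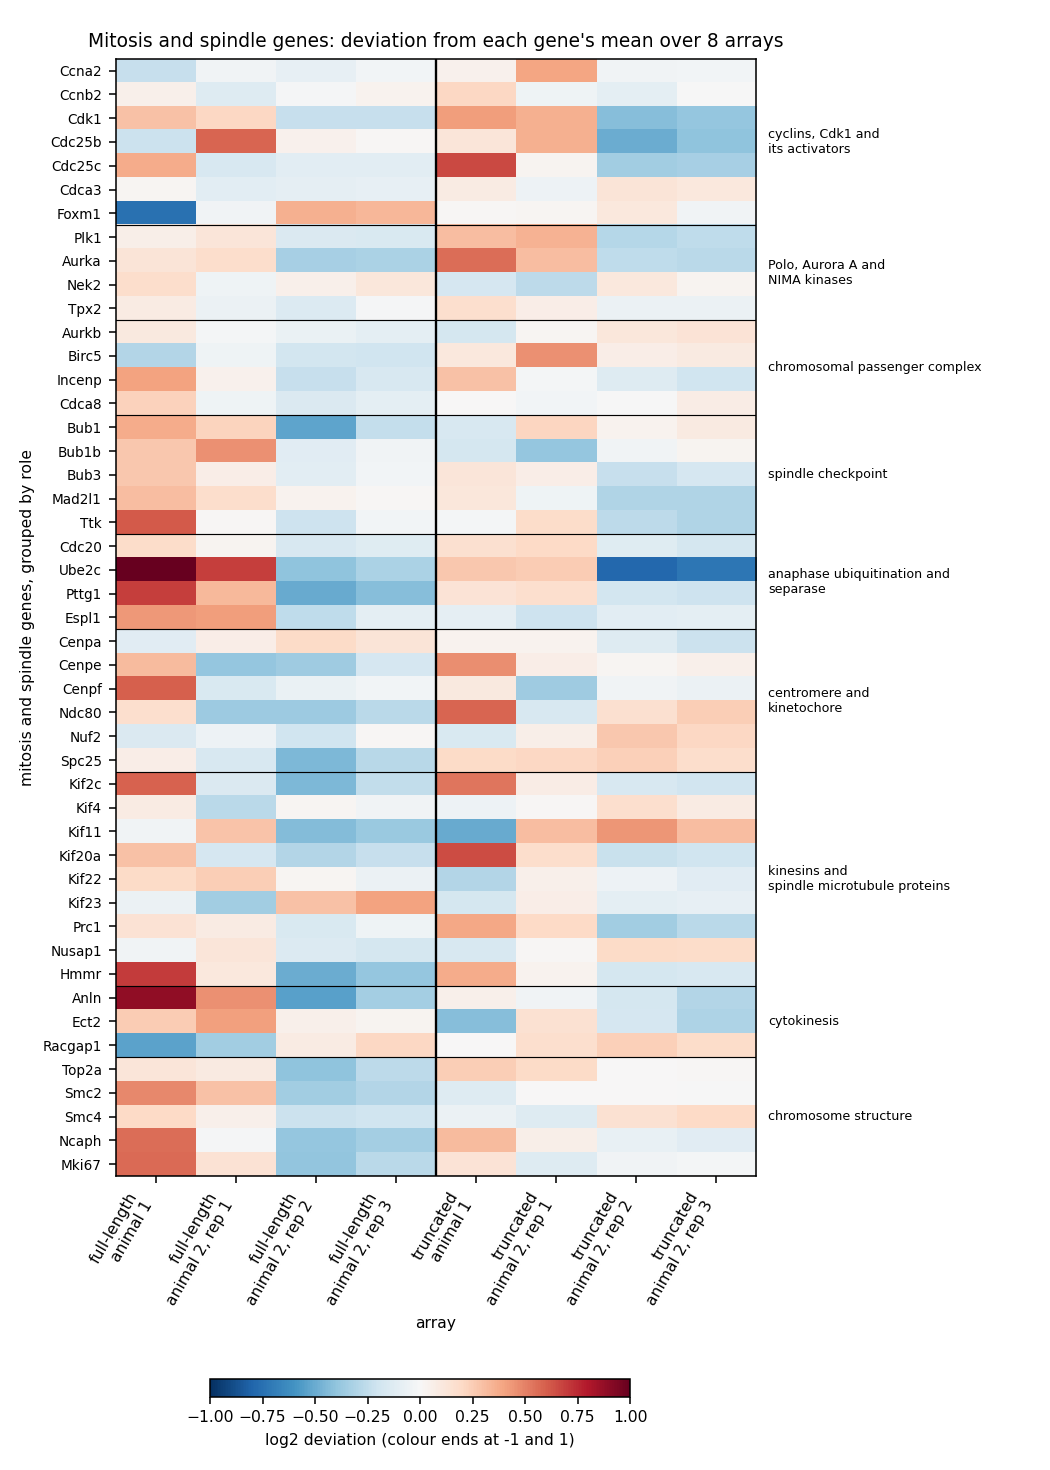
Deviation of each gene (rows, by role) from its own mean over the 8 arrays (columns, by genotype), in log2; colours end at -1 and 1. The array of full-length animal 1 is the highest for 17 of 47 genes, and replicate 2 of full-length animal 2 is the lowest for 19.

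By replicate number the genotype difference had a median of 0.05 in the replicate 1 arrays and 0.07 in the replicate 2 and 3 arrays, which hold animal 2 only and allow no test. The sign agreed between both sets in 21 of 47 members, a smaller share than the 6537 of 11386 genes tested. Birc5, Spc25 and Ndc80 lay above 0 in both, and Ube2c and Ect2 below 0 in both.

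**Figure D5:**
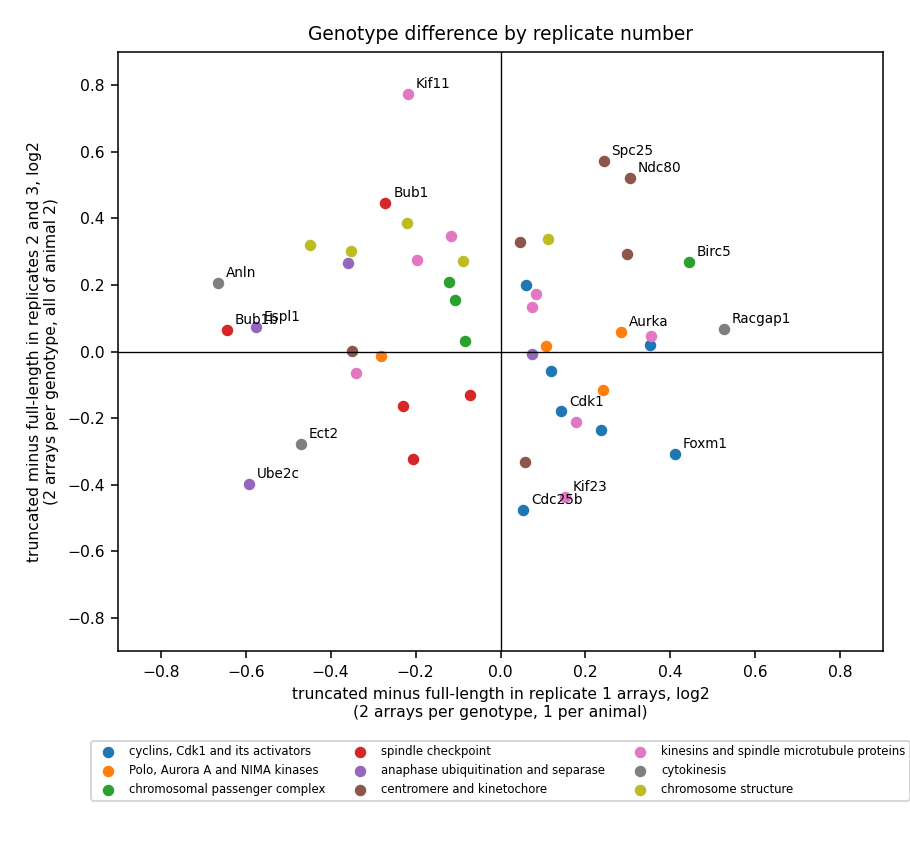
Genotype difference (truncated minus full-length, log2) of each gene in the replicate 1 arrays (horizontal axis) and in replicates 2 and 3 (vertical axis), coloured by role. Kif11 (-0.22 and 0.78) and Bub1 lie in the upper left. The sign is the same in both for 21 of 47 genes, and for 6537 of all 11386 genes tested.

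A wider set of 180 tested genes of the same pathways, listed separately from the members, gave 2 genes higher and 4 lower at an unadjusted p under 0.05 in limma (1.11% and 2.22%, against 8.79% and 5.3% of all genes) and 0 after adjustment. Their median difference was -0.10, against -0.01 over all genes. Without the 2 full-length arrays of replicate 1 it was 0.02, with 96 of 180 above 0. Within replicates 2 and 3 of both genotypes it was -0.03. The 2 higher genes were Cep55, a midbody protein, at 1.96 (5.23, 4.59, 7.36 and 7.40 in the full-length arrays and 7.91, 7.92, 7.59 and 7.54 in the truncated arrays) and Nin, a centriole protein, at 0.94. Without the 2 full-length arrays of replicate 1 the difference of Cep55 was 0.42 and that of Nin 0.50. Mad2l1bp, which helps silence the checkpoint, differed by -1.19, the cohesin subunit Stag2 by -0.86, the transcription factor E2f2 by -0.80 and Nfyb, a subunit of NF-Y named here after its value was seen, by -0.67. Without the same arrays these were -0.13, -0.15, 0.12 and -0.26. Neither the 17 tested subunits and regulators of the APC/C (median -0.10) nor the 32 other kinetochore proteins (median -0.12) had a gene past an unadjusted p under 0.05 in limma. Without the 2 full-length arrays of replicate 1 these medians were 0.15 and -0.04. The largest differences in these lists were -0.62 for Anapc10, 0.52 for Anapc15, 0.83 for Cenpm and -0.82 for Oip5. Without the same arrays they were 0.06, 0.31, 1.09 and -0.26. In the remaining lists the other named differences were -0.48 for Haspin, -0.85 for Esco2, -0.79 for Kif18a, -0.47 for Tacc1 and -1.03 for Cdc14b. Cks2 differed by -0.56, Rhoa by 0.51, Vps4a by -0.50 and Lin54 by -0.72. Without the same arrays these were, in order, 0.67, -0.69, -0.37, -0.24, -0.05, -0.39, 0.57, -0.66 and -0.45.

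DNA replication genes, which mark S phase, were set beside the members. Their median difference was 0.00 over 49 genes. In limma 1 was higher and 2 lower at an unadjusted p under 0.05, against 8.79% and 5.3% of all genes. Replicate 1 arrays stood above the others in full-length mice in 41 of 49 (83.7%, against 34.4% of all genes). The median difference was 0.37 without the 2 full-length arrays of replicate 1, with 43 of 49 above 0 (87.8%, against 50.5% of all genes). Within replicates 2 and 3 of both genotypes it was 0.26, with 38 of 49 above 0 (77.6%, against 47.1%). Rrm2, a ribonucleotide reductase subunit, differed by 0.83 and Orc5, an origin protein, by -0.98. Among 6 tested CDK inhibitors, Cdkn2b (p15) differed by -2.61, reading 7.37, 7.03, 3.67 and 3.84 in the full-length arrays and 3.39, 3.62, 3.43 and 3.74 in the truncated arrays. Only the 2 full-length arrays of replicate 1 were high, and the difference was -0.26 without them. Cdkn3, a phosphatase that acts on CDKs, differed by 0.67 with no overlap between genotypes, and by 0.67 without those arrays.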

How the data were processed

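Values are log2 expression of 45101 probe sets as deposited, made with RMA per the submitters' processing notes (no version given). No source used here states the base of the logarithm, which was taken as 2 from how far the values spread. RMA draws dim values together, which understates differences of dim genes. The platform annotation gave 1 gene for 34945 probe sets (18193 genes), and 12 of the 47 members are read from s_at or x_at probe sets, which can match related sequences. For 33 members other probe sets exist. Of 48 such probe sets above the median of all values, 31 had the sign of the one used, with differences from -0.86 to 0.40.

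Arrays were averaged per animal. Genes with at least 2 animals above the median of all probe sets were kept (11386). The genotypes were compared with lmFit and eBayes in limma 3.58.1 (R 4.3.3, 2 residual and 3.25 prior degrees of freedom), with Benjamini-Hochberg adjustment. Only the fit on animal means was tried on simulated data, with independent animals. The fits with blocks or with first arrays only were not simulated. Same-numbered arrays of both genotypes correlated in their deviations at 0.30, 0.14, 0.23 and 0.21. Full-length replicates 1 and 3 of animal 2 correlated more with a truncated array of another label. The replicate number was a block in an alternative. Its pairing comes from the labels' numbers, which this check bears out only in part. The animals of the genotypes are different mice.

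Members and gene lists were chosen with earlier results of these data known. Values in every array are given for Cdk1, Foxm1, Plk1, Aurkb, Birc5, Bub1b, Mad2l1, Cdc20, Cenpa, Kif11, Top2a, Mki67 and the 2 members of each role with the largest difference, and from each pathway list the 2 genes with the largest difference are named. Other members are given by their difference.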

Additional observations from a re-analysis of the deposited data

Results flagged for a closer look

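Of 50 groups of 4 arrays (25 named members in 2 genotypes), 4 had an array apart from the other 3 by more than Dixon's 95% critical value. For independent values chance alone gives about 1 in 20. Here 3 of the 4 arrays come from 1 animal, so that rate does not hold. In truncated mice, replicate 1 of animal 2 read 9.94 for Birc5, above the next array at 9.59, and 8.09 for Espl1, below 8.20. The array of truncated animal 1 read 7.51 for Kif11, below 8.31, and 9.37 for Smc2, below 9.49. The cause was not tested. These 4 flags come from the arrays of truncated replicate 1.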

How the results depend on the processing

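The 25 named members were compared with their reported differences under 21 alternatives (525 values where each could be computed). The sign differed in 54, and 39 moved by more than 1 SD or were called at an adjusted p under 0.05 in limma (2 values). Birc5, Ccna2, Ect2, Kif22, Mad2l1, Ndc80, Nek2, Spc25 and Top2a (9 of 25) kept their sign in all of the settings. No setting used other probe sets alone. Among those above the median of all values, the other probe set of Top2a differed by -0.42, of Spc25 by -0.19 and of Nek2 by 0.02. These had the opposite sign to the one used. Other probe sets of Ccna2 (0.13) and Kif22 (-0.33 and -0.21) had the same sign. Over all genes the fit called 2 with array medians subtracted, 345 with the animal as a random block, 940 with the replicate block and 2998 with the first array of each animal. Members called were 0, 0, 0 and 2 in these, and members past an unadjusted p under 0.05 were 0, 1, 7 and 5 (0%, 2.13%, 14.9% and 10.6%, against 14.2%, 16.2%, 27.3% and 34.6% of all genes). The replicate block changed no call of a member. Members whose arrays did not overlap numbered 23 with the first arrays (48.9%, against 58.1% of all genes), 36 with replicates 2 and 3 of animal 2 only (76.6%, against 77.4%), 21 without the 2 full-length arrays of replicate 1 (44.7%, against 48.3%) and 5 without the replicate 1 arrays of both animals 2 (10.6%, against 28.5%). Fewer arrays are compared in these settings. The median difference was 0.20 without the 2 full-length arrays of replicate 1. Leaving out 1 animal or array at a time gave 0 to 665 calls over all genes (665 without full-length animal 2, 344 and 427 without its replicates 2 and 3), 0 to 4 members past an unadjusted p under 0.05 (4 without full-length animal 2, 8.51%, against 22.5% of all genes), and 2 to 25 members with no overlap (25 without full-length animal 2, 21 without truncated animal 2, 7 and 5 without full-length and truncated animal 1, and 4 without replicate 1 of truncated animal 2, against 67.1%, 53.1%, 24%, 23.8% and 24.1% of all genes).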
